A study of Mus musculus with 7 samples.

Results

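Cycling tumour cells of NSCG brain tumours were taken as cells that passed a tumour gate and held at least 3 UMIs (unique molecular identifiers, counted RNA molecules) of 2 proliferation genes. They were thus chosen by measured counts. Top2a (topoisomerase II alpha, which untangles DNA in S phase and mitosis; chromosome 11, 98992943 to 99024189 of GRCm38, minus strand) and Mki67 (the Ki-67 antigen of proliferating cells; chromosome 7, 135689784 to 135716361, minus strand) had to sum to 3 UMIs or more. The tumour gate asked for at least 2 UMIs of Egfr, Cdkn2a, Sox2 and Nes together and for none of Ptprc, C1qa, Cldn5 and Pecam1, the leukocyte, microglial and endothelial genes. Of 51795 cells kept in 7 libraries, 26182 passed the tumour gate, and 22427 of those (85.7%) were cycling. The reference class was the 1154 tumour-gated cells of the same libraries (4.41% of the gate) without a single Top2a or Mki67 UMI, called negative cells below.

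NSCG is a mouse glioma line with an mCherry tag, the EGFRvIII form of the EGF receptor and a stated loss of Arf/Ink4a, and all tumours of all groups carried it. The tumour gate did not use the tag, so host cells could pass it. Whole tumours were grown in wild-type C57BL/6 mice aged 7 to 10 weeks at use, collected at about day 14, and pooled from at least 2 mice per library. The groups were UT (untreated, 1 library), IgG (IgG2b isotype control at 10 mg/kg, 2 libraries), BP (5 mg/kg of the anti-VEGF antibody B20 plus 10 mg/kg of anti-PD-L1, 2 libraries), BPI (the BP antibodies with IPI-145, a PI3K inhibitor given by mouth at 10 mg/kg, 1 library) and CD40 (an agonist antibody against CD40 at 100 µg per dose, 1 library, with or without a dendritic cell vaccine). A pooled library is 1 replicate, and a single line limits the model to 1 genetic background. IgG replicate 1, BP replicate 2 and BPI have consecutive library names and are called set A. CD40 and IgG replicate 2 also have consecutive names, and BP replicate 1 and UT stand alone. UT also lists its cells from another barcode set than the other libraries. The chemistry behind this is not settled by the sources used here, and it cannot be told apart from the untreated condition in any value of UT.

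The cell cycle runs from G1, where D-type cyclins with Cdk4 and Cdk6 start to inactivate the RB protein, through cyclin E with Cdk2 at the entry into S phase, to cyclins A and B with Cdk1 in G2 and mitosis. E2F factors released from RB switch on replication genes. Later, the DREAM and MMB complexes and Foxm1 control mitotic genes through a promoter element called CHR. CCAAT boxes are a separate element found in such promoters. Loss of Ink4a removes an inhibitor of Cdk4 and Cdk6, and loss of Arf removes an activator of p53.

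CHR elements were frequent in promoters of the mitosis list, E2F motifs in those of the replication list and CCAAT boxes in both. The search covered RefSeq promoters of GRCm38.p6 from 250 bases before to 50 bases after the start, for the CHR (letters TTTGAA), for the CCAAT box as named and for E2F motifs (either TTTCGCGC or the variant TTTGGCGC), on both strands. RefSeq entries matched 49 of 58 mitosis genes (52 promoters) and 37 of 46 replication genes (43 promoters). CHR stood in 69.2% of mitosis promoters, 14.0% of replication promoters and 17.9% of all 32851 promoters. CCAAT stood in 78.8%, 58.1% and 37.4% of them, and CHR and CCAAT together in 61.5%, 9.30% and 6.95%. An E2F motif stood in 5.77% of mitosis promoters, 27.9% of replication promoters and 0.813% of all promoters. Median GC content was 59.7% in mitosis promoters, 59.0% in replication promoters and 52.7% in all promoters, and its part in these shares was not tested. The promoters of Ube2c (chr2:164769679-164769978, plus strand), Ckap2l (chr2:129297163-129297462, minus strand) and Kif11 (chr19:37376132-37376431, plus strand) are shown because they are the mitosis genes with the largest difference whose promoter holds both elements. Capitals mark CHR and CCAAT matches on either strand.
Ube2c: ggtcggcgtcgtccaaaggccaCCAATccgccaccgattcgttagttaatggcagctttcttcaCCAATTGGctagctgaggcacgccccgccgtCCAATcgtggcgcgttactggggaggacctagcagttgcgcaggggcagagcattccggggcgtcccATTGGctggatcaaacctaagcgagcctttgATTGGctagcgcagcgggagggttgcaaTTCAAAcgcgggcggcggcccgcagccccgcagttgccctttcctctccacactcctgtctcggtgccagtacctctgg
Ckap2l: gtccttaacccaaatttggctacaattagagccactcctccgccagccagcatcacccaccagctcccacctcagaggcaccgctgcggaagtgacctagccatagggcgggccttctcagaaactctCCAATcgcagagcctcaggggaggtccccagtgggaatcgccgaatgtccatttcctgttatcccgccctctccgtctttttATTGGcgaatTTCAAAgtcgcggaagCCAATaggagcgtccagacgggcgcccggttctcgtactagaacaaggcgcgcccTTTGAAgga
Kif11: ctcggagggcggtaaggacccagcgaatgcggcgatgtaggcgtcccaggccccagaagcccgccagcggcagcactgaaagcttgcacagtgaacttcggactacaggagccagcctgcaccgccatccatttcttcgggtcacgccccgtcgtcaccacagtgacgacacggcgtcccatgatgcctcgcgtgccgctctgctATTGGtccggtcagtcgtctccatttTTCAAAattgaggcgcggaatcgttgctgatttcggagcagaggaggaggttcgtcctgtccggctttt
The CHR match of Ube2c begins 29 bases before the start, that of Kif11 19 bases before it, and the first of Ckap2l 30 bases before it. In the promoters of Clspn (chr4:126556730-126557029, plus strand) and Pola1 (chrX:93632106-93632405, minus strand), the replication genes with the largest difference and an E2F motif, capitals mark that motif.
Clspn: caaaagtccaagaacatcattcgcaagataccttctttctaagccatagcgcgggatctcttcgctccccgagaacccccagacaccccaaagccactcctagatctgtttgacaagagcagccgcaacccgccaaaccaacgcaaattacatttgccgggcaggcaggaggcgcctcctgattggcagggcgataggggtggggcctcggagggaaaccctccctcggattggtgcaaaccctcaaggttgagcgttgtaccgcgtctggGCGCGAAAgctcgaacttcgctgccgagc
Pola1: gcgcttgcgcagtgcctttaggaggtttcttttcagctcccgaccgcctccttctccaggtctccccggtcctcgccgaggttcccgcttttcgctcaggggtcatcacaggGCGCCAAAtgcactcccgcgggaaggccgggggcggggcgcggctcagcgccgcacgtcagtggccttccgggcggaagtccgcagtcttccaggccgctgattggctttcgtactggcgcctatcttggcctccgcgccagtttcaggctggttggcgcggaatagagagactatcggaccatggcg
A match is a run of letters, and binding was not measured.

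The cycling share of tumour-gated cells was 66.2% in UT (95% exact binomial interval 63.7% to 68.7%), 91.7% and 87.7% in IgG 1 and IgG 2 (the replicate number follows the group). It was 80.6% in BP 1, 88.5% in BP 2, 83.2% in BPI and 86.5% in CD40. UT was lowest and IgG replicate 1 highest. BP averaged 84.6% ± 5.63 (SD, n = 2) and IgG 89.7% ± 2.82 (SD, n = 2), a difference of -5.12 percentage points that was not larger than the spread (two-sided exact permutation test, p = 0.667; 2 against 2 libraries cannot go below 0.33). At this gate and full depth the BP and IgG values overlapped, since BP replicate 2 lay between the IgG replicates. Without BP replicate 1 the difference was -1.14 percentage points. Within set A, BP replicate 2 differed from IgG replicate 1 by -3.13 percentage points.

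A count of 3 UMIs is easier to reach in a deep cell. Thinned to 5000 UMIs per cell, with 75 to 255 shallower cells per library left out, the shares were 33.4% in UT, 74.8% (IgG 1), 67.2% (IgG 2), 55.0% (BP 1), 68.7% (BP 2), 63.7% (BPI) and 70.6% (CD40). UT remained the lowest library and IgG replicate 1 the highest. Thinned to 3000 UMIs, CD40 was highest at 55.6%, followed by IgG replicates 1 and 2 at 54.2% and 50.5%. BP replicates 1 and 2 were at 38.8% and 49.1%, BPI was at 42.0%, and UT was lowest at 19.9%. Both BP libraries thus lay below both IgG libraries at 3000 UMIs, but not at 5000. Of all kept cells, cycling tumour cells made up 16.7% (UT), 60.3% (IgG 1), 60.6% (IgG 2), 21.7% (BP 1), 56.2% (BP 2), 43.7% (BPI) and 49.5% (CD40), and the 2 BP libraries differed more from each other than either IgG library from BP replicate 2.

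**Figure D1:**
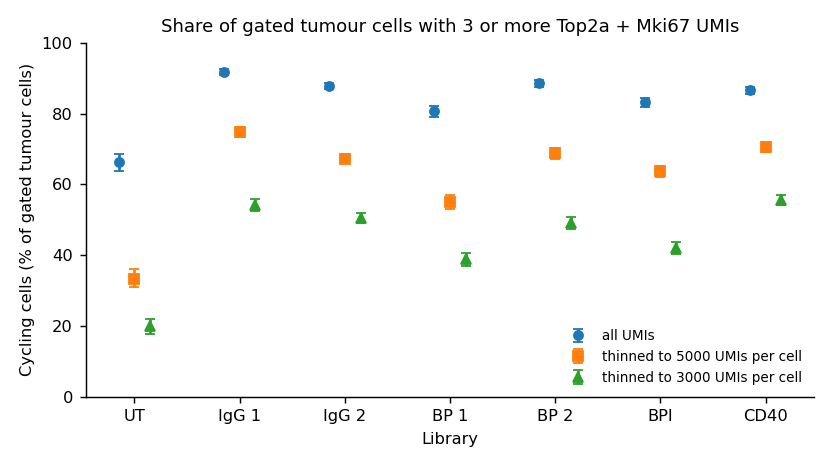
Cycling cells as a percentage of tumour-gated cells in each library (y axis, 0 to 100%), with all UMIs and after thinning each cell to 5000 or 3000 UMIs; bars are exact 95% binomial intervals and cover counting error only. UT is the lowest library at each depth (66.2%, 33.4% and 19.9%), and BP replicate 2 (88.5%) lies between the IgG replicates (91.7% and 87.7%) at full depth.

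The Top2a and Mki67 threshold was also applied to other cells. Microglia-gated cells passed it in 3.54% to 19.7% of cells per library, at median depths of 3002 to 14326 UMIs. Whether the microglia-gated cells that passed were themselves cycling was not tested. Of 48 neutrophil-gated cells 0 passed, which allows a share of up to 6.25%, but their median depths were only 1200 to 2146 UMIs, so this 0 says little about the gate. Free RNA in empty droplets held 261 to 790 CPM (a gene's UMIs scaled to the class total) of Top2a and Mki67, against 670 to 1614 CPM in cycling cells. At the threshold, cells with exactly 3 gate UMIs had median depths of 9313 to 17149 UMIs and 2200 to 4655 CPM of mitosis-list transcripts, and those with exactly 2 had 8584 to 16434 UMIs and 1941 to 4667 CPM, and these ranges overlapped.

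Cycling cells were the deeper class in every library. Their median depth was 11535 to 21955 UMIs and 3739 to 6020 genes, against 6826 to 13664 UMIs and 2612 to 4531 genes in negative cells. Mitochondrial transcripts took a median 2.0% to 4.0% and 2.1% to 4.2% of UMIs. Likely doublets were the kept cells with the highest Scrublet scores, and their number per library was set beforehand at 0.8% per 1000 cells. They made up 4.6% to 6.5% of cycling cells per library and 0.4% to 7.0% of negative cells. Cdkn2a was detected in 87.9% to 92.4% of cycling cells per library although the line is labelled as lacking Arf/Ink4a. The deleted exons are not given in the sources used here, so a 3′ count does not check that label. Egfr was detected in 65.9% of cycling UT cells and in 84.4% to 91.5% elsewhere, and Sox2 in 45.8% to 85.0%.

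Negative cells were few and of mixed kind, and their part in the differences below was not tested. At least 3 mitosis-list UMIs stood in 89.8% to 100% of negative cells per library. In set A the negative cells held 3051 to 3613 CPM of the mitosis list, against 777 to 2142 CPM in the other 4 libraries, while cycling cells held 5823 to 7775 CPM throughout. Markers of other cells were also higher in negative cells of some libraries. The 10 endothelial and mural markers summed to 11.5 to 590 CPM in negative cells and 4.90 to 32.5 CPM in cycling cells, with Rgs5, a pericyte gene, at 451 CPM in the negative cells of IgG replicate 2 and at 0 in those of BP replicate 2. The 10 mature neural markers summed to 9.04 to 25554 CPM in negative and 5.99 to 294 CPM in cycling cells. Nearly all of the highest value was Ttr, the choroid plexus transport protein, at 25100 CPM in CD40. The 12 myeloid markers summed to 9.04 to 125 CPM in negative and 9.96 to 104 CPM in cycling cells. T and NK markers (10 genes) stayed at 0.33 to 18.2 CPM in negative and 1.09 to 11.3 CPM in cycling cells, with Cd3e at 0 in the negative cells of 5 libraries. Values are therefore also given for cells with at least 1 Cdkn2a UMI in both classes, an alternative chosen after the data were seen. There the negative cells held at most 89.7 CPM of the endothelial and mural list and 152 CPM of the mature neural list. These sums did not fall in every library. The endothelial and mural sum went from 590 to 86.3 CPM in IgG replicate 2 but from 76.6 to 89.7 CPM in BPI. The mature neural sum went from 25554 to 152 CPM in CD40 but from 97.1 to 117 CPM in UT.

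Across 11226 genes at 5 CPM or more on average, the differences below are of log2(CPM + 1) within a library, averaged over 7 libraries, and carry no test because the gate chose the cells by their counts. A gene was counted as 2-fold higher or lower when its mean difference was at least 1 or at most -1 and all 7 libraries had the same sign. By that count 298 genes (2.65%) were higher in cycling cells and 146 (1.30%) were lower. The lower count was 94 with TMM scaling, 36 in cells within the interquartile range of UMIs, 95 at a filter of 20 CPM, 232 without BP replicate 2 and 241 without BPI, and the higher count was 183 at a filter of 20 CPM. The interquartile range left only 7 negative cells in BP replicate 2, 9 in IgG replicate 1 and 28 in BPI, and 56 to 81 in the other libraries. The median difference of all genes was 0.10, and 0.24 with TMM-scaled counts. In Cdkn2a-positive cells 303 genes (2.77%) were higher and 102 (0.931%) lower, of which 270 and 74 were shared with the counts above.

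Mitosis genes had the highest list median: 55 of 58 were 2-fold higher in cycling cells, with a list median of 2.30 against 0.10 for all genes, and 54 of 58 in Cdkn2a-positive cells. Nusap1, a spindle microtubule protein (chromosome 2, 119618298 to 119651244), stood at 135, 107, 139, 95.6, 99.7, 85.4 and 144 CPM in cycling cells of UT, IgG 1, IgG 2, BP 1, BP 2, BPI and CD40, and at 9.76, 2.26, 5.66, 6.27, 15.3, 4.08 and 7.24 CPM in negative cells. The classes did not overlap, and the mean difference was 3.95 ± 0.74 (SD, n = 7). Ube2c, the ubiquitin-conjugating enzyme of the anaphase-promoting complex, stood at 229 to 330 CPM in cycling and 7.24 to 70.6 CPM in negative cells, a difference of 3.70 ± 1.18. Cyclin A2 (Ccna2), the partner of Cdk2 and then Cdk1, stood at 47.2 to 69.2 CPM and 0 to 15.3 CPM, with the 0 in IgG replicate 1. Kif11, the motor that separates spindle poles, differed by 3.27 ± 1.23, and Hmmr, a spindle assembly factor, by 3.08 ± 1.97. Outside the lists, the largest differences included Knl1 (a kinetochore protein, 2.56 ± 1.08), Aspm (a spindle pole protein, 3.10 ± 0.85), Fbxo5 (an inhibitor of the anaphase-promoting complex, 3.06 ± 0.94), Ska1 (2.48 ± 1.0), Kif15 (2.42 ± 1.06) and Cit, a cytokinesis kinase (2.36 ± 0.78). Cyclin B2 (Ccnb2) was an exception at 0.90 ± 1.36. It was higher in cycling cells in 4 of 7 libraries and lower in the 3 libraries of set A, and with TMM scaling it was higher in 5 and lower in 2.

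Replication genes differed less than mitosis genes. The gate itself split the classes by the cycling genes Top2a and Mki67, so the order of the lists is not independent of it. The part of the gate in that order was not tested. The list median was 0.83, 10 of 46 genes were 2-fold higher, and none was lower in all 7 libraries. With CPM, 18 of 46 were higher in all 7 libraries, against 14.0% of all genes. With TMM scaling 30 of 46 were. The share of all genes was not counted with that scaling, which moved their median from 0.10 to 0.24. By library, the list median was -0.02 to 0.19 in set A, 0.58 in UT, 1.0 in IgG replicate 2, 1.52 in CD40 and 2.01 in BP replicate 1. The summed level ran from 4775 to 5757 CPM in cycling cells and from 1412 to 4440 CPM in negative cells. Among genes that supply nucleotides, the differences were thymidine kinase (Tk1) 1.98 ± 1.22, the ribonucleotide reductase subunits Rrm2 and Rrm1 1.82 ± 1.22 and 1.29 ± 0.67, and thymidylate synthase (Tyms) 1.52. Clspn, an adaptor of the replication checkpoint, differed by 1.90 ± 1.19, and Mcm10, a replication initiation factor, by 1.65. The MCM helicase subunits Mcm2 and Mcm6 were near 0, with Mcm2 at 0.13 ± 0.51 (higher in 3 of 7 libraries, 5 of 7 with TMM scaling) and Mcm6 at 0.25 ± 0.75. With TMM scaling these were at 0.28 and 0.40, and Mcm3, Mcm4 and Mcm7 at 0.51, 0.47 and 0.47. Mcm5 was at 0.91 with that scaling and higher in 7 of 7 libraries. Mcm2 levels were 47.1 to 101 CPM in cycling cells and 35.2 to 112 CPM in negative cells, and overlapped.

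The list of histones and histone chaperones holds replication-dependent histones, whose transcripts accumulate in S phase and mostly lack a poly(A) tail, with the variant histones H2afz, H2afx and H2afv and the chaperones Asf1b and Anp32e. Of its 16 genes 11 were 2-fold higher, with a median of 2.23. Genes were ranked if they had 1 sign in all 7 libraries and 50 CPM or more in the higher class, gate genes left out. Hist1h2ap ranked first, at 4.25 ± 0.50, and near-identical histone copies can share reads. Its cycling level was 473 CPM in UT, 151 to 267 CPM in set A, 49.8 and 24.4 CPM in IgG replicate 2 and CD40, and 39.6 CPM in BP replicate 1. The linker histone Hist1h1b was ordered differently, at 759 and 712 CPM in IgG replicate 2 and CD40, 101 to 151 CPM in BP replicate 1 and set A, and 20.6 CPM in UT. Homologous recombination and Fanconi genes, which repair breaks at replication forks, were 2-fold higher for 10 of 18, with a median of 1.20. Among them, Rad51ap1 differed by 1.82 ± 1.42, Fancd2 by 1.79 ± 0.77 and Brca1 by 1.67 ± 0.94.

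**Figure D2:**
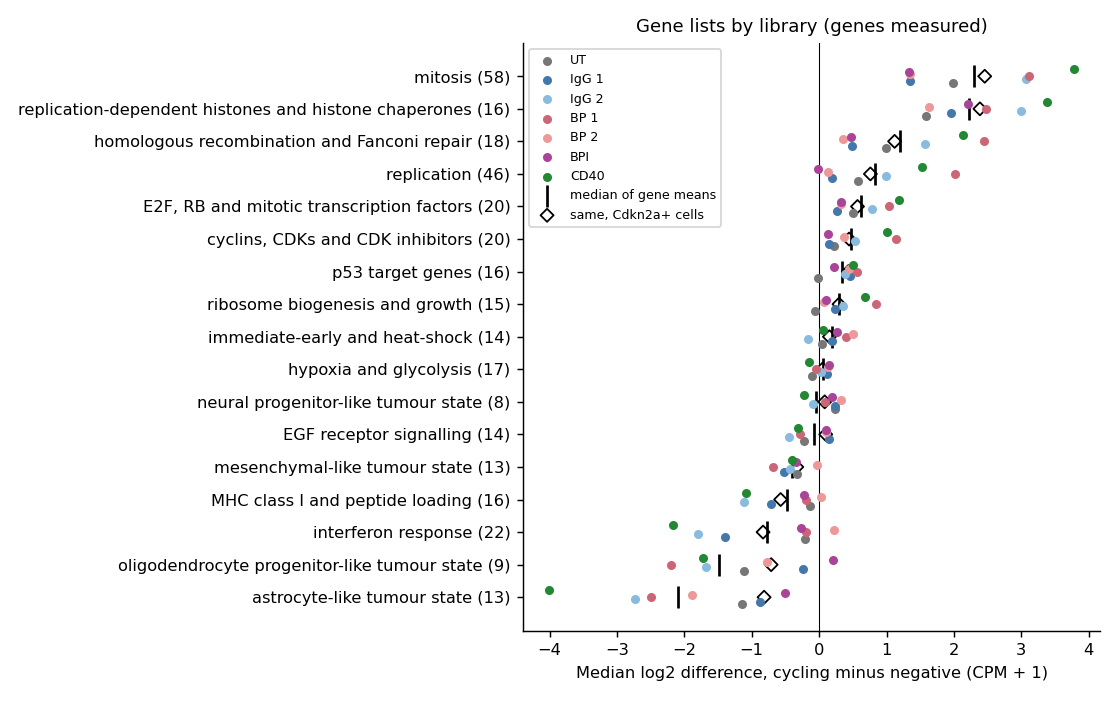
Median log2 difference between cycling and negative cells for each gene list (x axis, log2 of CPM + 1), 1 dot per library; the bar is the median of the 7-library gene means and the diamond the same in Cdkn2a-positive cells. Mitosis (2.30) and histones with histone chaperones (2.23) lie highest of the 17 lists drawn and the astrocyte-like list lowest at -2.09, moving to -0.82 in Cdkn2a-positive cells.

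Of 20 cyclins, CDKs and CDK inhibitors, 6 were 2-fold higher in cycling cells and 1 was 2-fold lower. Cyclins E1 and E2 were higher in cycling cells in 7 of 7 libraries. Ccne1 stood at 35.4 to 66.7 CPM against 6.58 to 21.6 CPM (1.84 ± 0.61) and Ccne2 (chromosome 4, 11191351 to 11204779) at 55.7 to 91.1 CPM against 5.28 to 45.2 CPM (1.94 ± 0.96). Cyclin F (Ccnf), which degrades ribonucleotide reductase in G2, differed by 3.00 ± 0.48, and the phosphatase Cdc25b, which activates Cdk1, by 2.20 ± 0.47. Cdk1 itself stood at 159 to 246 CPM against 11.2 to 113 CPM.

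Cyclins D1 and D2 were lower in cycling cells. Cyclin D1 (Ccnd1) stood at 36.1, 21.2, 61.6, 112, 22.1, 29.2 and 63.8 CPM in cycling cells of UT, IgG 1, IgG 2, BP 1, BP 2, BPI and CD40, and at 39.5, 42.9, 163, 251, 26.7, 31.6 and 213 CPM in negative cells. It was lower in cycling cells in 7 of 7 libraries, with a mean of -0.82 ± 0.65, and in 5 of 7 with TMM scaling. Cyclin D2 (Ccnd2) differed by -1.55 ± 1.21 (7 of 7 lower under both scalings), and was lower in 6 of 7 libraries in Cdkn2a-positive cells. Its cycling minus negative difference was itself called higher in BP than in IgG by the edgeR test described below. Cdk6 differed by -0.85 ± 0.53 at levels of 2.58 to 7.92 CPM against 5.14 to 15.8 CPM (6 of 7 lower with TMM scaling). Cyclin D3 (Ccnd3) was at 0.07 and Cdk4 at 0.29. The inhibitors Cdkn2d (p19, an inhibitor of Cdk4 and Cdk6) and Cdkn1a (p21) were higher in cycling cells in 7 of 7 libraries, by 1.15 ± 0.39 and 0.70 ± 0.52. Cdkn1a stood at 280 to 519 CPM against 154 to 404 CPM.

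**Figure D3:**
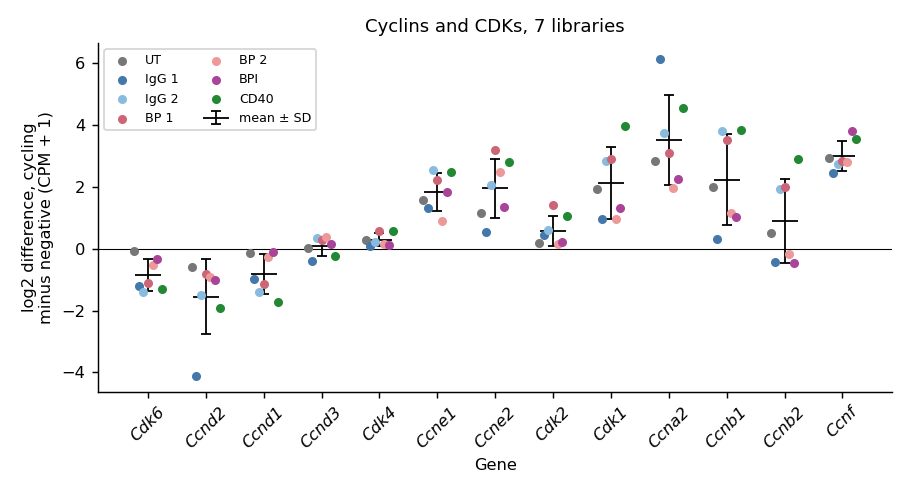
Log2 difference between cycling and negative cells (y axis, CPM + 1) for cyclins and CDKs in order of the cycle; dots are the 7 libraries and bars the mean ± SD. Ccnd1 and Ccnd2 lie below 0 (-0.82 and -1.55) and Ccne1, Ccne2 and Ccnf above it (1.84, 1.94 and 3.00) in all 7 libraries, while Ccnb2 spans both sides.

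Of 20 E2F, RB and mitotic transcription factors measured, 5 were 2-fold higher. The repressors E2f8 and E2f7, which close the E2F programme late in S phase, differed by 2.42 ± 0.74 and 2.17 ± 1.10, Foxm1 by 1.70 ± 0.94, Mybl2 (B-Myb of the MMB complex) by 1.46 ± 1.09 and E2f2 by 1.3. The activator E2f1 was at 0.35 ± 0.69 and Rb1 at -0.18 ± 0.46. Myc was lower in cycling cells in 7 of 7 libraries under both scalings, at 5.24 to 18.0 CPM against 11.3 to 36.0 CPM (-0.85 ± 0.26). Of 16 p53 target genes 1 was 2-fold higher, Gtse1 (2.19), which also belongs to the G2 programme. Hypoxia and glycolysis genes (17 measured), EGF receptor signalling genes (14) and ribosome biogenesis genes (15) had 0 members past 2-fold, with medians of 0.06, -0.08 (0.06 with TMM scaling) and 0.30.

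Within the cycling class, replication and mitosis transcripts gave a wide spread. Replication-list UMIs made up 39.7% to 48.8% of replication plus mitosis UMIs per library, highest in BP replicate 1 and lowest in IgG replicate 1. In single cycling cells the median share was 43.6% to 59.6%, and the quartiles lay at 26.4% and 62.9% in IgG replicate 1. BP replicate 1 (59.6%) and UT (57.2%) had the highest medians, CD40 was at 49.4%, and set A lay between 43.6% and 47.1%. In negative cells the pooled share was 53.5% to 71.2%. These shares were not tested.

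**Figure D4:**
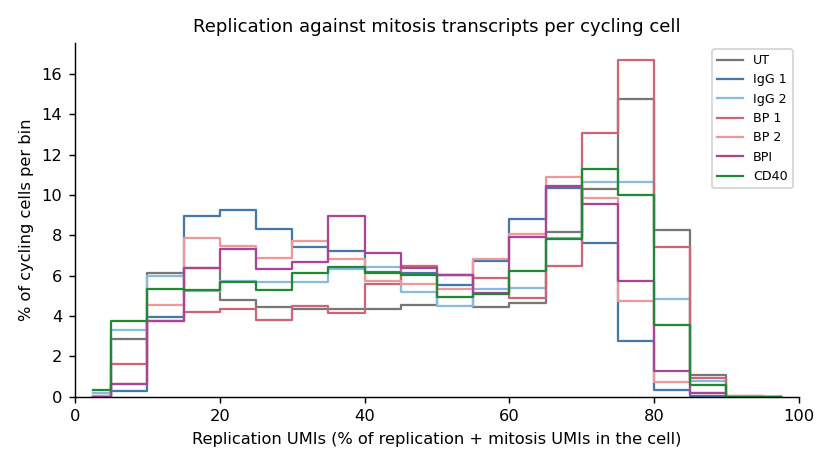
Distribution of the replication share in single cycling cells (x axis, replication UMIs as a percentage of replication plus mitosis UMIs; y axis, percentage of cycling cells per 5-point bin), 1 line per library. UT and BP replicate 1 have their highest bin between 75% and 80%, and IgG replicate 1 has more cells than they do between 15% and 40%.

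Glial genes were among those lower in cycling cells. Gfap, the astrocyte intermediate filament (chromosome 11, 102887336 to 102900912), stood at 99.1, 11.8, 79.5, 163, 10.2, 10.7 and 88.7 CPM in cycling cells in the order used above, and at 396, 58.7, 1142, 3579, 24.8, 30.6 and 1015 CPM in negative cells. It was lower in cycling cells in 7 of 7 libraries (-2.66 ± 1.26), and the difference was -2.80 in Cdkn2a-positive cells. Ttyh1, a membrane protein of neural stem cells and glia, differed by -2.31 ± 1.11 and by -2.21 in Cdkn2a-positive cells. In contrast, the glutamate transporter Slc1a3 was at -2.09 ± 1.20 overall and 0.08 in Cdkn2a-positive cells, and the list median moved from -2.09 to -0.82 there. Xist, transcribed in female cells, was at -2.90 in all gated cells and -0.93 in Cdkn2a-positive cells. Of the 13 astrocyte-like genes measured 4 were 2-fold lower, and 3 of the 11 measured in Cdkn2a-positive cells. Of all genes 1.30% were 2-fold lower, and 0.931% in Cdkn2a-positive cells. Vimentin (Vim) was lower in cycling cells in 7 of 7 libraries (-0.77 ± 0.28), and 4 of 13 mesenchymal-like genes were lower in all 7 (5.26% of all genes were, and 4.45% in Cdkn2a-positive cells).

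The actin-binding peptide gene Tmsb4x was much lower in cycling cells of 3 libraries. It stood at 934, 689 and 860 CPM in cycling cells of IgG replicate 2, BP replicate 1 and CD40, against 6981, 8369 and 6472 CPM in negative cells and 8121, 9203 and 9098 CPM in Cdkn2a-positive negative cells. In UT it was 995 against 1861 CPM. In set A it was 19.5 to 71.1 CPM in cycling cells, against 63.0 to 235 CPM in negative cells and 19.0 to 45.9 CPM in the Cdkn2a-positive ones.

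The antigen presentation and interferon lists had medians below 0 in 6 of 7 libraries and above 0 in BP replicate 2 (0.02 and 0.22). Of 16 MHC class I and peptide-loading genes 8 were lower in all 7 libraries (4 with TMM scaling, 5 in Cdkn2a-positive cells), with a median of -0.48, and 1 of 16 was 2-fold lower. H2-T23, a non-classical class I gene, differed by -1.19 ± 0.53, H2-D1 by -0.83 ± 0.58 and B2m, the class I light chain, by -0.64 ± 0.41. The class II genes H2-Aa and H2-Ab1 differed by -2.55 ± 1.30 and -2.48 ± 1.53. H2-Aa stood at 112 and 54.6 CPM in cycling cells of UT and BP replicate 1 and at 0.11 to 3.58 CPM in the other 5 libraries. The myeloid list was also highest in cycling cells of these 2 libraries, at 104 and 79.6 CPM against 9.96 to 28.7 CPM, with the macrophage gene Lyz2 at 26 and 25.2 CPM against 1.75 to 6.01 CPM. The part of myeloid RNA in the class II level was not tested. Of 22 interferon-response genes 3 were 2-fold lower and 4 were lower in all 7 libraries (0 with TMM scaling), with a list median of -0.78. Of all genes, 5.26% were lower in all 7 libraries with CPM (4.45% in Cdkn2a-positive cells), and the share with TMM scaling was not counted.

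The interferon difference was large in the IgG and CD40 libraries and small in the others. Gbp2, an interferon-induced GTPase (chromosome 3, 142620602 to 142638008), stood at 7.18 and 8.28 CPM in cycling cells of IgG replicates 1 and 2 and 13.2 CPM in CD40, against 83.6, 328 and 413 CPM in their negative cells. In BP replicate 1 it was 533 against 1087 CPM, in BP replicate 2 26.5 against 24.8 CPM, in BPI 111 against 151 CPM and in UT 340 against 394 CPM. Both classes were thus high in BP replicate 1 and UT, both low in BP replicate 2, and apart in IgG and CD40. By library, the list median was -1.40 (IgG 1), -1.80 (IgG 2), -0.20 (BP 1), 0.22 (BP 2), -0.27 (BPI), -0.20 (UT) and -2.17 (CD40).

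The test of this difference of differences, on UMI sums of both classes with edgeR's quasi-likelihood test and Benjamini-Hochberg adjustment, called 92 of 18659 genes (0.493%) between BP and IgG. DESeq2 called 25 genes, and edgeR called 255 with library set as a term, which was added after the data were seen, and 43 with the replicate block. Of the 92, 78 (0.418%) had a higher cycling minus negative difference in BP and 14 (0.0750%) a lower one. The interferon list held 13 of the 78 among its 22 genes and none of the 14: Irf7, Ifit1, Ifit3, Isg15, Rsad2, Gbp2, Gbp3, Iigp1, Igtp, Irgm1, Cxcl10, Cd274 and Xaf1. For Gbp2 the log2 difference between BP and IgG was 3.87 (SE 0.37, adjusted p = 7.5e-22 by edgeR), with BP library values of -1.03 and 0.09 against -3.37 and -5.15 in IgG. It was called in 16 of 16 alternatives, with adjusted p up to 0.0016. Ifit3, an inhibitor of viral RNA, differed by 3.01 (SE 0.39, adjusted p = 3.1e-11, edgeR), Isg15, a ubiquitin-like modifier, by 2.34 (SE 0.32, adjusted p = 9.3e-10, edgeR) and Iigp1, an interferon-induced GTPase, by 2.57 (SE 0.33, adjusted p = 2.8e-11, edgeR). Near-identical members of the GTPase families can share reads. The fit had 2 residual degrees of freedom and shared its estimate of the spread fully across genes of like level. The SE and adjusted p thus do not measure how far a gene's own libraries lie apart, such as -3.37 and -5.15 for Gbp2 in IgG.

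Few negative cells stand behind the Gbp2 contrast, on the BP side as well as for IgG. BP replicate 2 had only 71 negative cells, and 7.04% of them held a Gbp2 UMI. Its Gbp2 difference thus rests on very few cells. In IgG replicate 1, 12 of 64 negative cells held a Gbp2 UMI (18.8%) against 7.60% of cycling cells, and in IgG replicate 2, 20.1% of negative cells against 7.53%. In CD40 it was 26.2% against 8.08%, although negative cells were shallower. At least 10 Gbp2 UMIs were counted in 8.03% of negative and 0.31% of cycling cells of IgG replicate 2, and in 10.2% and 0.27% of those of CD40. In BP replicate 1 the share with a Gbp2 UMI was 90.9% against 95.8%, in BP replicate 2 7.04% against 17.7%, in BPI 37.2% against 44.5% and in UT 68.9% against 85.6%. The share was thus higher in cycling cells of these 4 libraries and lower in those of IgG and CD40. A share with a UMI grows with depth, and cycling cells were deeper throughout. By CPM Gbp2 was lower in cycling cells of BP replicate 1, BPI and UT and near equal between the classes in BP replicate 2. No order is thus read from the shares of these 4 libraries. Restricted to Cdkn2a-positive cells, the Gbp2 difference was 4.09 (adjusted p = 6.9e-21, edgeR), and 82 genes were called, 66 of them shared with the 92. With all tumour-gated cells, the count of 92 became 43 without IgG replicate 2 and 216 without BP replicate 2.

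**Figure D5:**
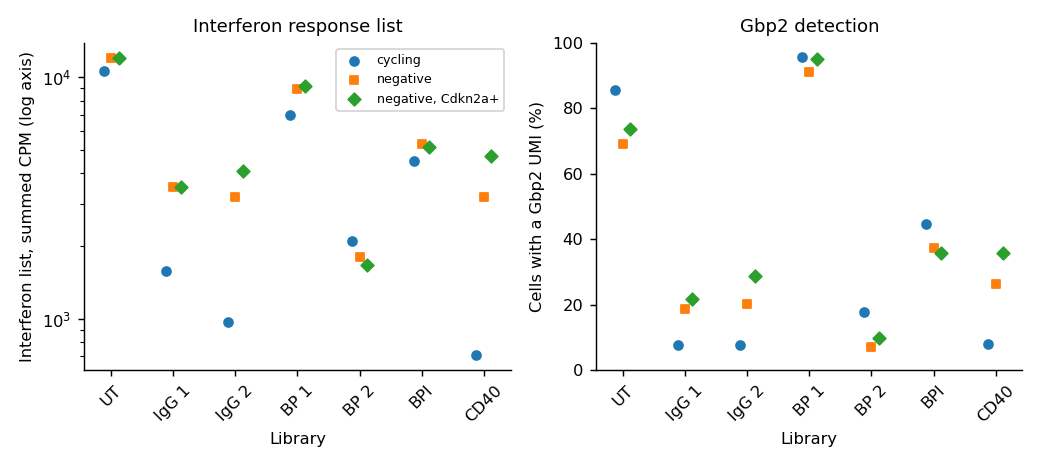
Left, summed CPM of the 22 interferon-response genes (log axis) in cycling cells, negative cells and Cdkn2a-positive negative cells of each library; right, percentage of cells of each class with at least 1 Gbp2 UMI. Cycling and negative cells are apart in IgG and CD40 (967 to 1568 and 705 CPM against 3192 to 3529 and 3196 CPM for the list) and close in UT, BP and BPI.

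Of the other genes named by rule, Gm4841, Ifi202b and F830016B08Rik had differences of 3.74, 3.73 and 3.65 between BP and IgG. Ttr, at 5.39, stood at 2219 CPM in the negative cells of IgG replicate 2 and at 0 in those of BP replicate 1, and had an adjusted p of 1 in Cdkn2a-positive cells (1.32, edgeR). On the lower side, Id2, an inhibitor of bHLH transcription factors, differed by -2.18 (adjusted p = 0.0013, edgeR), and Adam12, Lsamp, Nptx1 and Adgrl3 by -2.00, -1.94, -1.92 and -1.87. Id2 was at 1.33 and 1.85 CPM in cycling cells of IgG replicate 1 and BP replicate 2, and at 58.1 and 47.6 CPM in those of IgG replicate 2 and BP replicate 1.

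In set A the mitosis genes separated the classes less, with a list median of 1.33 to 1.35 against 1.98 to 3.79 in the other libraries. This comparison was set up after earlier results of these data showed that tumour cells differ between sets. The gate also chose the classes by cycling genes, so the calls are not independent support. The test of the cycling difference, set A against other libraries, called 85 of 17146 genes (0.496%), 42 (0.245%) with a higher and 43 (0.251%) with a lower cycling minus negative difference in set A. This test held no treatment terms. BPI lay only in set A, and CD40 and UT only outside it, so set cannot be fully told apart from treatment here. Mitosis genes made up 11 of the 43, replication genes 5 and histone genes 4, all lower in set A. Birc5 (survivin, of the chromosomal passenger complex) had differences of 0.47, 0.79 and 1.0 in set A and 2.20, 3.45, 3.64 and 5.02 elsewhere (log2 difference -2.72, SE 0.45, adjusted p = 0.032, edgeR). The negative cells of set A were also shallower, at median depths of 6826 to 8360 UMIs and 2612 to 2920 genes against 10508 to 13664 UMIs and 3726 to 4531 genes in the other libraries, where a count of 0 for the gate genes is harder to reach, and the part of depth in these differences was not tested. Ccnb1, Ncapg, Kntc1 and Pclaf were at -2.44, -2.47, -2.39 and -2.35. Their negative cells held more in set A, for Birc5 156 to 215 CPM against 7.90 to 56.0 CPM, as did the mitosis list above. Mgp, S100a6, Edil3, Frmd5 and Crip1 lay on the other side at 4.07, 2.85, 2.43, 2.43 and 2.36, and of these Frmd5 was called in Cdkn2a-positive cells, where 103 of 16356 genes (0.630%) were called and 53 were shared with the 85. The count was 552 with DESeq2, 196 with its size factors in edgeR, 582 with no filter on low counts and 54 in the interquartile range of UMIs. It was 0 without IgG replicate 1 or BPI, 1 without BP replicate 2, 14 without IgG replicate 2, 44 without CD40, 204 without BP replicate 1 and 1270 without UT.

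Between treatments, the calls in cycling cells themselves depended on the tool. With edgeR's quasi-likelihood test, 0 of 19410 genes (0%) passed for BP, BPI or CD40 against IgG and 0 of 19315 for UT against IgG, with 373, 207, 21 and 2366 genes at an unadjusted p under 0.05. BPI, CD40 and UT are 1 library each and were assumed to vary like the IgG and BP pairs, which left 2 residual degrees of freedom, so a count of 0 does not show that the treatments act alike. With set A as a term, added after the data were seen, edgeR again called 0 genes in each comparison, with 1 residual degree of freedom, and 1263 genes had an unadjusted p under 0.05 for BP against IgG in cycling cells. DESeq2 called 54 genes for BP (52 higher), 4 for BPI, 0 for CD40 and 691 for UT. The spread between replicates was wide: log2 levels of cycling cells differed with an SD over genes of 0.77 for the pair of IgG libraries and 0.90 for the pair of BP libraries, against 0.20 to 0.35 between libraries of set A and 0.17 between IgG replicate 2 and CD40. Library set and replicate cannot be told apart within a group. In cycling cells the interferon list summed to 1568 CPM (IgG 1), 967 (IgG 2), 7007 (BP 1), 2091 (BP 2), 4519 (BPI), 705 (CD40) and 10588 (UT). Both BP libraries lay above both IgG libraries, and untreated UT lay above all. Leukocyte markers in cycling cells moved with this order in part: the myeloid list was at 104 CPM in UT and 79.6 CPM in BP 1, against 9.96 (IgG 1), 19.9 (IgG 2), 15.4 (BP 2), 23.5 (BPI) and 28.7 CPM (CD40). T and NK markers were at 11.1 (UT), 11.3 (BP 1), 9.19 (BPI), 2.78 (BP 2), 1.89 (IgG 1), 1.09 (IgG 2) and 2.12 CPM (CD40), and their part in the interferon level was not tested.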

How the data were processed

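Single-cell RNA of whole NSCG tumours was measured in 7 libraries by 10x 3′ sequencing. The deposited values are raw UMI counts per gene and barcode, made by the authors with Cell Ranger (version 4 per the file headers, 7.0.1 per the submitters' processing notes, build mm10). All barcodes were deposited, and a cell had to reach 1000 UMIs and 500 genes with no more than 15% of its UMIs mitochondrial. Libraries held 68997476 to 186793886 UMIs. Intervals and floors cover counting error only, and nothing in the labels ties a p-value to single animals, since each library pools mice. No doublets were removed; Scrublet (scanpy 1.11.5) gave scores only.

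Counts were summed per library and class. Differences are of log2(CPM + 1) within a library, for genes of at least 5 CPM on average, with the 10 gate and comparison genes left out. Tests used edgeR 4.0.16 (quasi-likelihood, TMM, Benjamini-Hochberg, adjusted p under 0.05), with the SE taken as the log2 difference over the root of F, and DESeq2 1.42.0 as an alternative. Scripts were tested on simulated data. Named genes were the 15 largest and 15 smallest differences of 1 sign in all 7 libraries with 50 CPM or more in the higher class, 10 each way outside the lists, 2 to 6 per list, and, for tests, 5 each way at a log2 CPM of 5 or more with separated libraries. The members and all lists were chosen with earlier results of these data known. Samples with the same replicate number shared only that number: their deviations from the group means correlated at -0.741 over 10829 genes. The series' other tumour model was not analysed here. Some genes that the rule names are not reported here.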

Additional observations from a re-analysis of the deposited data

Results flagged for a closer look

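The cycling minus negative difference itself differed between groups of libraries for 92 genes between BP and IgG and for 85 genes between set A and the other libraries, by the edgeR test of that difference (adjusted p under 0.05). Between BP and IgG, the log2 values of the named genes were 5.39 for Ttr, 3.87 for Gbp2, 3.74 for Gm4841, 3.73 for Ifi202b and 3.65 for F830016B08Rik on the higher side. On the lower side they were -2.18 for Id2, -2.00 for Adam12, -1.94 for Lsamp, -1.92 for Nptx1 and -1.87 for Adgrl3.

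Between set A and the other libraries, the values were 4.07 for Mgp, 2.85 for S100a6, 2.43 for Edil3, 2.43 for Frmd5 and 2.36 for Crip1, and -2.72 for Birc5, -2.47 for Ncapg, -2.44 for Ccnb1, -2.39 for Kntc1 and -2.35 for Pclaf. In Cdkn2a-positive cells, Ttr and Adgrl3 of the BP genes and Mgp, S100a6, Edil3, Crip1 and Ccnb1 of the set A genes were not called.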

How the results depend on the processing

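The named tested genes and the cycling share difference kept their direction in the alternatives run, but 81 of 330 values of the tested genes no longer passed the threshold. In Cdkn2a-positive cells Ttr was at 1.32 (adjusted p of 1, edgeR) and 6 other named genes were not called. Descriptive values that changed sign included Slc1a3, from -2.09 to 0.08 in Cdkn2a-positive cells, and the medians of 3 lists near 0. The EGF receptor signalling median (-0.08) was 0.10 in Cdkn2a-positive cells, 0.06 with TMM scaling and 0.12 in the interquartile range of UMIs. The neural progenitor-like median (-0.04) lay above 0 in several alternatives, up to 0.15 in the interquartile range of UMIs, and the hypoxia and glycolysis median (0.06) was -0.03 without BP replicate 2 and -0.01 without BPI. The cycling share difference between BP and IgG (-5.12 percentage points) ranged from -9.10 to -1.14 percentage points when 1 library was left out. It was -8.40 thinned to 3000 UMIs, -9.17 thinned to 5000 UMIs and -6.98 with a gate of at least 5 Top2a and Mki67 UMIs. As a share of all kept cells it was -21.5. The number of genes 2-fold lower in cycling cells (146) was 36 within the interquartile range of UMIs, 95 at a filter of 20 CPM, 94 with TMM scaling and 1.3e+02 to 241 without 1 library (232 without BP 2, 241 without BPI). The number 2-fold higher (298) was 183 at a filter of 20 CPM and 257 to 337 without 1 library.

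For the cycling difference, BP against IgG, the 92 genes became 25 with DESeq2, 43 with the replicate block, 255 with library set as a term (the crossed pairing, added after seeing the data) and 43 to 216 without 1 library. For the cycling difference, set A against other libraries, the 85 genes became 54 in the interquartile range of UMIs, 552 with DESeq2, 196 with DESeq2 size factors in edgeR, 582 with no filter on low counts, and 0 to 1270 without 1 library. Treatment tests in cycling cells, at 0 calls with edgeR, gave 54 (BP), 4 (BPI) and 691 (UT) calls with DESeq2. The cause of these shifts was not tested. Few negative cells, 64 to 249 per library and 7 to 81 within the interquartile range of UMIs, limit the depth behind each difference.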
